A study of Bos taurus with 12 samples.

Results

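The high-number miRNAs are the mature bovine miRNAs named from miR-2284 to miR-2999 or from miR-10162 to miR-12099, with miR-2478, miR-2887 and miR-2904 left out. The rule uses names alone, but it was set with earlier results of these data known. The study called each of the 3 left out in at least 1 of its comparisons of high and low milk protein. Of the miRNAs kept, it called miR-2411-3p, in the non-lactating period. The deposited table held 78 entries for 76 such mature miRNAs, among 426 entries for 388 mature miRNAs, and the entry of the highest mean stood for a mature miRNA listed at more than 1 hairpin. Small RNA was sequenced from mammary gland biopsies of 12 Chinese Holstein cows, 3 in each of 4 groups. HP cows gave milk of high protein percentage and LP cows milk of low protein percentage, and both were biopsied while lactating. HD and LD are the matching high and low groups biopsied in the non-lactating (dry) period. Each library came from a different cow, and the biopsies are whole tissue in which epithelial, stromal, blood and immune cells are mixed. The 12 libraries are named by group and replicate number, HP1 to LD3. Values are given in TPM, the authors' name for RPM, the reads of a miRNA scaled to an equal total of counted reads per library, without a correction for length. The mature miRNAs are close to each other in length, so TPM of different miRNAs are set side by side as deposited.

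A miRNA is a short RNA cut by Drosha and Dicer from a hairpin in a longer transcript, and loaded into an Argonaute protein, where it lowers the output of mRNAs that pair with its seed. Numbers are assigned to miRNAs in the order of their entry in miRBase, so the high numbers belong to sequences found late by sequencing, many of them in cattle, and for most of them no target or function is established. A hairpin that lies inside an intron can be transcribed together with its host gene. In the mammary gland the milk-secreting epithelium expands and works in lactation and regresses when milking stops, and the share of the other cell types in the tissue changes with it.

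The hairpins of the high-number miRNAs mostly lie within protein-coding genes. Of the 76 mature miRNAs, 74 matched a RefSeq miRNA gene (assembly ARS-UCD2.0, while the files were made on ARS-UCD1.2, so no coordinates are given), at 67 hairpin genes. Of these 67 hairpins, 57 (85.1%) overlapped the span of a protein-coding gene, 3 that of a long non-coding RNA gene only, and 7 neither. Among the hairpins of the other miRNAs, 155 of 281 (55.2%) overlapped a protein-coding gene. Another miRNA gene stood within 10 kb of 3 of the 67 hairpins, against 147 of the 281 others, so clusters of hairpins were few here. Strand was not considered in this overlap. A few of the 57 are named here for a known place in lactation or in the tissue, after the values were seen. The RNA of the host genes was not examined. The hairpin of miR-10179 lies in FASN, the fatty acid synthase, that of miR-10166 in AACS, which makes acetoacetyl-CoA for lipid synthesis, and that of miR-10170 in ABCG2, a transporter that carries compounds into milk. The hairpin of miR-11986b lies in OCLN, which encodes the tight junction protein occludin, and that of miR-12035 in MUC16, a membrane mucin of epithelia. Immune genes also appear, with miR-10167 in a BoLA gene of the bovine major histocompatibility complex, miR-2376 in TAPBP, which helps load peptides on its class I proteins, and miR-11999 in BTK, a kinase of B cells. No hairpin overlapped another annotated small RNA gene. MIR2443 stands near the let-7 genes MIRLET7A-3 and MIRLET7B.

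Most high-number miRNAs were expressed at a few TPM. Their mean over the 12 libraries had a median of 1.65 TPM (range 0.504 to 1820), where that of the other 312 miRNAs was 49.7 TPM. A mean under 1 TPM was found for 28 of the 76 (36.8%) and for 16 of the other 312 (5.13%). In all, 64 of the 76 had a mean under 10 TPM, and they made up 41.6% of the 154 miRNAs of the table below that level. All 76 exceeded 0.5 TPM in at least 2 libraries, as did all 388 miRNAs of the table, so nothing is known here of high-number miRNAs below that limit. Through the lactation libraries alone 5 members met it (miR-11978, miR-12035, miR-12036, miR-2313-3p and miR-12023), and through the dry libraries alone 3 (miR-11999, miR-12006 and miR-2387). Listing through 1 stage alone favours members that are high in that stage, although miR-12023 and miR-2387 did not pass the stage test below. The stage values of these 8 are therefore given as a description and support nothing.

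**Figure D1:**
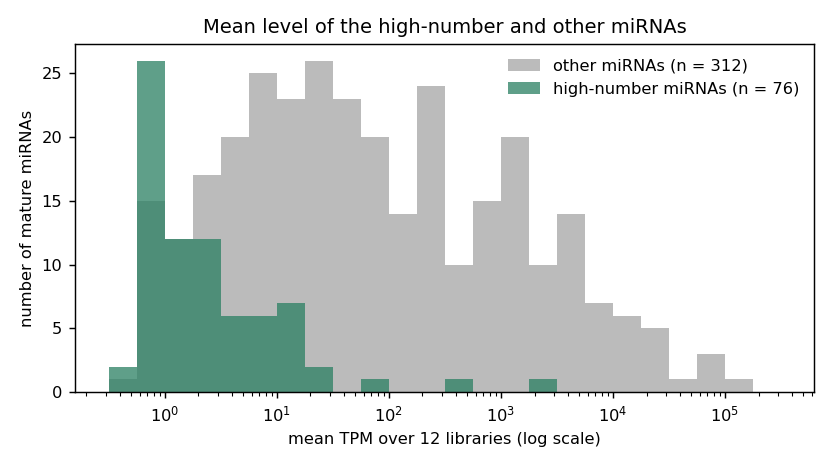
Histogram of the mean TPM over the 12 libraries (x axis, log scale) for the 76 high-number miRNAs and the other 312 mature miRNAs (y axis, number of mature miRNAs). The high-number miRNAs gather at the low end, with 28 under 1 TPM and 2 over 100 TPM.

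A pair of miRNAs held most of the reads of the set. miR-10174-3p, for which RefSeq gave no matching gene, had 1420, 1350 and 2229 TPM in HP1 to HP3, 1426, 1653 and 1334 in LP1 to LP3, 1977, 2171 and 1991 in HD1 to HD3 and 1682, 2749 and 1851 in LD1 to LD3. It ranked 46 among all 388 miRNAs, and all 12 libraries lay between 1334 and 2749 TPM. miR-2419-5p had 194, 778 and 757 TPM in HP, 435, 222 and 152 in LP, 80.2, 239 and 166 in HD and 554, 167 and 174 in LD, and the groups overlapped. Together the pair held 77.2% to 94.99% of the summed TPM of the set, which ranged from 1924 to 3467 TPM per library, or 0.192% to 0.347% of all TPM. Neither passed between lactation and the dry period over all libraries (limma, adjusted p = 0.38 for miR-10174-3p and adjusted p = 0.107 for miR-2419-5p). Against the 4 deepest dry libraries alone miR-10174-3p was lower in lactation (-0.63 ± 0.19 on the log2 scale, adjusted p = 0.0198, limma).

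Without the pair, the summed level of the other 74 was 338, 433 and 481 TPM in HP1 to HP3 and 240, 351 and 438 TPM in LP1 to LP3. It was 432 TPM in HD1 and 545 TPM in LD1, and 184, 155, 154 and 159 TPM in HD2, HD3, LD2 and LD3. In TPM the non-lactating libraries thus fell into 2 sets. HD1 lay within the range of lactation and LD1 above it, and the other 4 were at a lower level that did not overlap any other library. The other 312 miRNAs were also high in HD1 and LD1, with a median of 70.4 and 67.5 TPM against 35.2 to 51.8 TPM in the other 10 libraries. After division by size factors the median high-number miRNA was at 1.27 in HD1 and 1.46 in LD1, 1.05 to 1.29 in the 4 deepest libraries and 1.37 to 1.95 in lactation. Next in mean level after the pair came miR-12030 (60.0 TPM), miR-12034 (20.7), miR-11976 (19.7), miR-2336 (16.4), miR-11985 (15.7), miR-2484 (14.9), miR-2285q (13.8) and miR-2340 (11.3). Of these 8, miR-2285q did not follow that split, with 6.14 to 17.3 TPM in lactation and 9.66 to 20 TPM in the 4 lower libraries. miR-2484 was highest in HD1 (34.9 TPM) and LD1 (21.9 TPM), but its lactation libraries (8.37 to 18.6 TPM) overlapped the other 4 (7.94 to 15.5 TPM).

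The libraries that stood apart in level also stood apart in depth, by which the reads counted as known miRNA are meant throughout. The reads counted over the table, from the TPM that 1 read is worth, ranged from 6026620 (HP1) to 13373813 (LP1) in lactation, and were 11047233 in HD1 and 14326362 in LD1, against 20895170 (LD3) to 23577192 (HD3) in the other 4 non-lactating libraries. By the study's account the libraries had like numbers of clean reads, so depth here is not the number of reads sequenced. HD1 and LD1 also came from the non-lactating cows sampled farthest before calving. Depth, time before calving and single libraries cannot be told apart here. The floor that 3 reads give was 0.127 TPM in HD3 and 0.498 TPM in HP1, and covers counting error only, since reads of PCR copies are not independent molecules. The median high-number miRNA rested on 8 reads in HP1 and on 19 to 31 reads in the non-lactating libraries.

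At the reads counted in each library, the number of members detected differed little between groups. Between 73 and 76 of the 76 miRNAs were listed above 0 in each library, and between 62 (HP1, the shallowest) and 74 had at least 3 reads. All 76 exceeded 0.5 TPM in at least 2 libraries, so high counts were partly set beforehand. The number with at least 3 reads expected at the depth of HP1 was 62 to 69.1 in lactation, 65.9 and 69.4 in HD1 and LD1, and 54.2 to 62.4 in the 4 deepest libraries. Members with fewer than 10 reads numbered 44 in HP1 and 11 to 33 elsewhere. The SD between replicates on the log2(normalized TPM + 1) scale had a median of 0.39 over the 76 miRNAs and 0.40 over the others, and in the range of 10 to 100 TPM it was 0.63 against 0.43.

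Lactation against the non-lactating period asked which miRNAs change with the function of the gland. Of the 76 high-number miRNAs, 17 were higher in lactation and 8 lower (limma over 12 libraries, Benjamini-Hochberg adjusted p under 0.05 over all 388 miRNAs). The background was 22.2% of all 388 miRNAs higher and 22.2% lower, beside 22.4% and 10.5% of the 76. Of the 17, 4 were listed through lactation alone, and of the 8, 2 were listed through the dry period alone. The median log2 difference, lactation minus non-lactating, was 0.13 over the 76 and -0.01 over all 388. Stages did not overlap in normalized TPM for 9 members that were higher in lactation (11.8%, background 11.6%) and for 1 that was lower (1.32%, background 10.3%), miR-2376. With the 2 high-protein groups alone 15 were higher and 3 lower (background 14.2% and 16.0%), and with the 2 low-protein groups alone 5 and 1 (background 8.25% and 5.15%). In whole tissue, fewer cells of a type and less RNA per cell cannot be told apart.

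Without a single library the count of higher members stayed between 15 and 19, but that of lower members fell to 2 without LP3, to 3 without HP3, LP2, HD2 or LD3, to 4 without HD3 and to 5 without HP1. Against the 4 deepest non-lactating libraries 21 members were higher and 8 lower (background 22.4% and 24.2%). Against HD1 and LD1 5 were higher and 3 lower (background 9.79% and 12.1%), in a fit with 2 non-lactating libraries. With log2 of the reads as a covariate 9 were higher and none lower (background 9.28% and 8.25%). These 3 fits were chosen after the data were seen. The 17 members higher over all libraries included all of the 5 and 6 of the 9, and all 17 were among the 21.

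**Figure D2:**
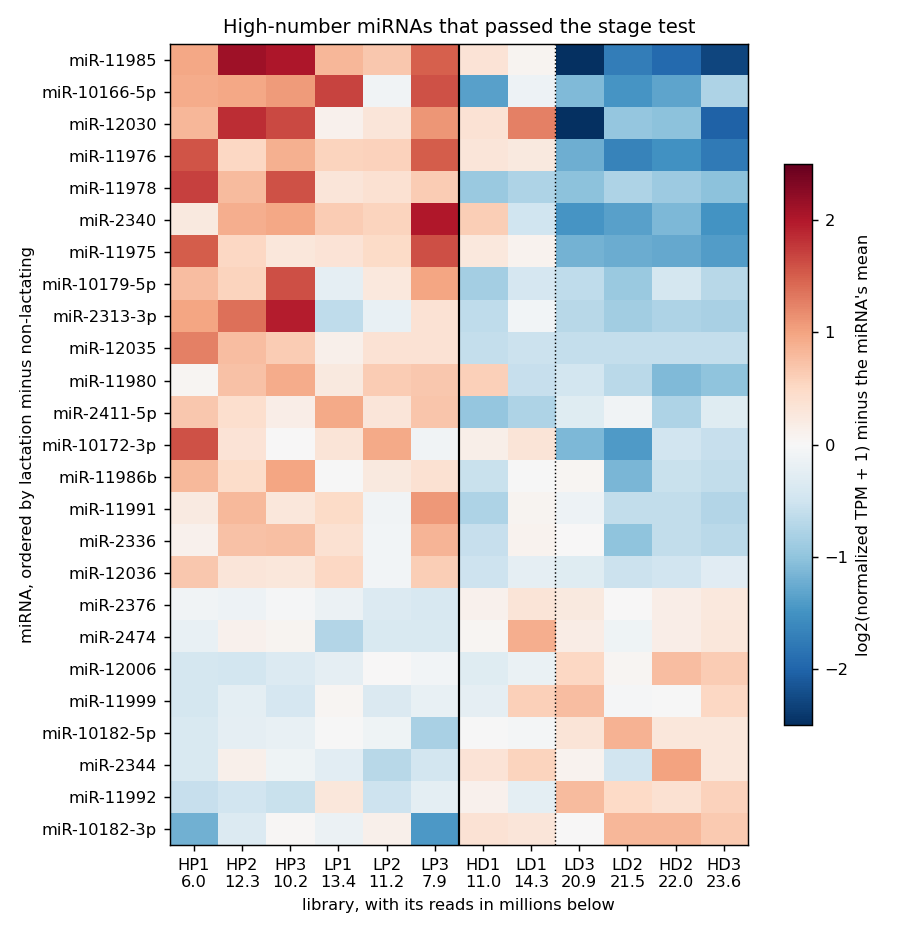
Heat map of the 25 high-number miRNAs that passed the stage test (rows, ordered by the log2 difference), in 6 lactation libraries left of the solid line and 6 non-lactating libraries right of it, ordered by depth with the number of reads under each name. Colour is log2(normalized TPM + 1) minus the mean of the miRNA, and in several upper rows HD1 and LD1, left of the dotted line, lie nearer to lactation than the 4 deepest libraries.

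In 5 miRNAs the stage difference passed over all libraries, with depth as a covariate, against HD1 and LD1 and against the 4 deepest libraries, and in all 12 fits that left out 1 library. In the low-protein groups alone miR-11978 and miR-12035 passed and the other 3 did not. Those 2 were below 0.5 TPM in every dry library and are listed through lactation alone, so their passing is a description and supports nothing. The other 3 met the table's limit in either stage. The share of all miRNAs of the table that passed these fits together is not given, so the count of 5 has no background to be judged by. The 5 are miR-11978, whose hairpin lies in COBLL1, miR-12035 in MUC16, miR-10166-5p in AACS, miR-10179-5p in FASN and miR-2411-5p in UBAP2L. miR-11978 had 5.31, 2.45 and 5.57 TPM in HP and 1.2, 1.87 and 2.02 in LP, against 0.09, 0.09 and 0 in HD and 0.28, 0.14 and 0 in LD. The lowest lactation library had 1.2 TPM and the highest non-lactating library 0.28 TPM, so the stages did not overlap. Its log2 difference was 1.80 ± 0.17 (SE, adjusted p = 1.06e-05), 1.81 ± 0.30 against HD1 and LD1 and 1.499 ± 0.24 with depth as a covariate. Pooled over libraries it had 172 reads in lactation (2.82 TPM) and 10 reads in the non-lactating libraries (0.0882 TPM).

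miR-12035 had 2.49, 1.55 and 1.47 TPM in HP and 0.52, 1.07 and 0.88 in LP, was listed at 0 in 5 of the 6 non-lactating libraries and had 0.07 TPM in LD1. It had 75 reads in lactation and 1 in the non-lactating libraries. The log2 difference was 1.17 ± 0.13 (SE, adjusted p = 3.95e-05) and 0.96 ± 0.19 with depth as a covariate. These differences are of log2(normalized TPM + 1), where the added 1 shrinks the change of so low a miRNA.

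miR-10166-5p had 8.63, 9.14 and 11.04 TPM in HP and 12.9, 4.54 and 14.1 in LP. In HD it had 1.63, 1.27 and 1.95 TPM and in LD 5.79, 0.70 and 1.15. LD1 with 5.79 TPM exceeded LP2 with 4.54 TPM, and after division by size factors the stages did not overlap. The log2 difference was 2.04 ± 0.33 (SE, adjusted p = 0.000404), 1.75 ± 0.47 against HD1 and LD1 and 1.90 ± 0.51 with depth as a covariate. miR-10179-5p had 2.49, 2.12 and 6.06 TPM in HP and 0.67, 1.78 and 3.03 in LP, against 0.27, 0.64 and 0.30 in HD and 0.91, 0.09 and 0.29 in LD. LD1 again held the highest value of its stage and exceeded LP1. Its log2 difference was 1.32 ± 0.24 (SE, adjusted p = 0.000827), with 1.14 ± 0.36 under the covariate (adjusted p = 0.0494).

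miR-2411-5p had 5.48, 4.57 and 4.10 TPM in HP, 5.76, 4.81 and 5.42 in LP, 1.72, 1.63 and 2.25 in HD and 2.23, 2.28 and 1.87 in LD, a mean of 5.02 ± 0.634 TPM for the lactation libraries and 1.997 ± 0.292 TPM for the others (SD, n = 6 each). The log2 difference was 1.07 ± 0.21 (SE, adjusted p = 0.00128) and 1.27 ± 0.31 with depth as a covariate. miR-2313-3p, in the cholesterol transporter gene GRAMD1B, passed over all libraries (1.29 ± 0.22, adjusted p = 0.000543) and with the covariate (1.08 ± 0.33, adjusted p = 0.0461), and was 1.01 ± 0.34 with adjusted p = 0.0578 against HD1 and LD1. It exceeded 0.5 TPM in 1 dry library (LD1) and is listed through lactation alone.

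In other miRNAs HD1 and LD1 had TPM like those of lactation, and the stage difference was largest against the 4 deepest libraries. The size factors of HD1 and LD1 were 1.4998 and 1.5001, the highest of the 12, so that after scaling these libraries lay below all of lactation for miR-11985, miR-11976 and miR-11975, whose TPM overlapped or lay close. miR-11985, in the gene of the focal adhesion protein PARVB, had 16.9, 40.2 and 42.1 TPM in HP and 12.9, 16.4 and 24.5 in LP. It had 16.8 TPM in HD1 and 13.7 in LD1, against 1.68, 0.89, 1.44 and 0.48 in HD2, HD3, LD2 and LD3. Its log2 difference, the largest of the set, was 2.71 ± 0.52 (SE, adjusted p = 0.00128), with 3.45 ± 0.31 against the 4 deepest and 1.11 ± 0.41 against HD1 and LD1 (adjusted p = 0.0742).

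miR-12030, which lies in a long non-coding RNA gene, had 61.6, 130 and 127 TPM in HP, 31.3, 51.2 and 73.7 in LP, 70.1 in HD1, 132 in LD1, and 19.3, 7.55, 13.8 and 1.87 in the other 4. LD1 was the highest of the 12 libraries and LD3 the lowest. The log2 difference of 1.94 ± 0.66 (SE, adjusted p = 0.0304) was 0.12 ± 0.38 against HD1 and LD1 and 2.82 ± 0.47 against the 4 deepest, and it lost the call without HP2, HP3, LP3, HD2 or HD3 (1.67 to 1.91). miR-12034, in the sorting nexin gene SNX5, had 10.5 to 64.1 TPM in lactation, 32.04 in HD1, 70.7 in LD1 and 0.48 to 8.09 in the other 4. It did not pass over all libraries (1.46 ± 0.81, adjusted p = 0.164), and differed by -0.82 ± 0.59 from HD1 and LD1 and by 2.55 ± 0.59 from the 4 deepest (adjusted p = 0.00485).

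miR-11976, in PATZ1, had 16.8 to 40.8 TPM in lactation, 26.2 in HD1, 24.99 in LD1 and 2.79 to 4.67 in the 4 deepest. miR-11975, in MIA3, whose protein carries large cargo such as collagen out of the endoplasmic reticulum, had 5.53 to 17.0 TPM in lactation, 9.69 in HD1, 8.45 in LD1 and 1.25 to 1.77 in the 4 deepest. miR-2340, in the T cell adaptor gene SKAP1, had 9.13 to 32.8 TPM in lactation, 19.1 in HD1, 7.96 in LD1 and 1.72 to 3.45 in the 4 deepest. Their log2 differences were 1.88 ± 0.43, 1.59 ± 0.39 and 1.77 ± 0.39 (SE), and with depth as a covariate 0.40 ± 0.35, 0.22 ± 0.30 and 0.85 ± 0.50. In all 3 the TPM of the lactation libraries lay above the 4 deepest non-lactating libraries without overlap, and HD1 and LD1 lay within the lactation range, except LD1 just below it for miR-2340.

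**Figure D3:**
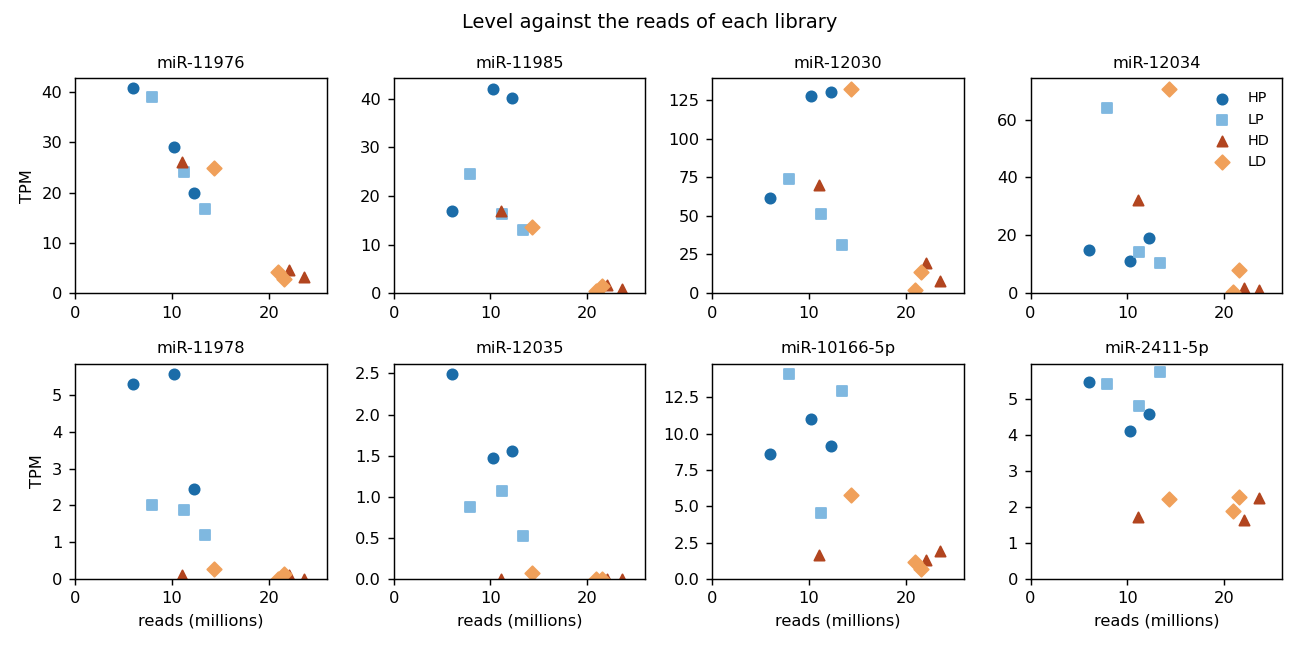
TPM (y axes, from 0) against the number of reads (x axes) for 8 high-number miRNAs, with 1 point per library and the 4 groups by colour and shape. In the upper row HD1 and LD1, the 2 shallowest non-lactating libraries, lie within or near the range of lactation, and in the lower row they lie below all lactation libraries, except LD1 for miR-10166-5p.

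The other 6 members higher in lactation had log2 differences between 0.78 and 1.08. miR-12036, in the signalling inhibitor gene SPRY1, had 0.62 to 1.49 TPM in lactation and 0.09 to 0.56 in the non-lactating period, and the stages did not overlap (0.78 ± 0.15, adjusted p = 0.00128), but it is listed through lactation alone. miR-11986b, in OCLN, had 1.72 to 5.77 TPM against 0.33 to 3.21 (0.95 ± 0.22, adjusted p = 0.00407). The others were miR-11980, miR-10172-3p, miR-11991 and miR-2336, of which miR-10172-3p lost its call in 7 of the 12 fits that left out 1 library (0.81 to 1.30 over all 12 fits).

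**Figure D4:**
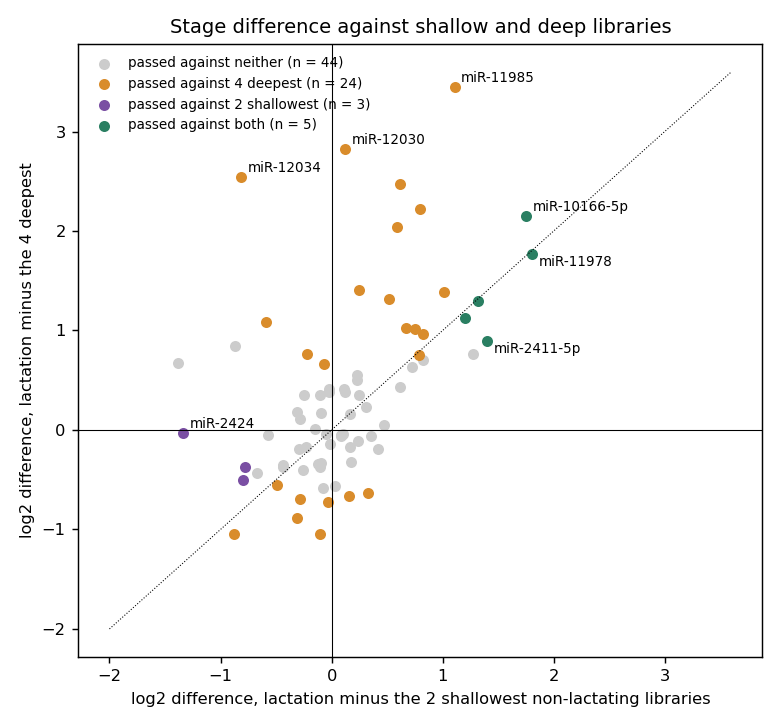
The log2 difference of each of the 76 high-number miRNAs between all 6 lactation libraries and HD1 and LD1 (x axis) or the 4 deepest non-lactating libraries (y axis), with the dotted line marking equal differences. Both axes share the lactation libraries. Of the 76, 24 passed only against the 4 deepest, 3 only against HD1 and LD1 and 5 against both. The same split over all miRNAs of the table is not given, so these counts have no background.

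The members lower in lactation changed less. In order of p they were miR-10182-3p, miR-11992, miR-11999, miR-10182-5p, miR-2344, miR-2376, miR-2474 and miR-12006, with log2 differences from -0.99 to -0.37. miR-10182-3p, in FGF12, had 0.33, 1.39 and 2.35 TPM in HP, 1.42, 2.67 and 0.13 in LP, 4.44, 4.95 and 3.61 in HD and 4.19, 3.39 and 1.63 in LD. The stages overlapped through LD3, and the log2 difference was -0.99 ± 0.29 (SE, adjusted p = 0.0158). miR-11992, in RBM22, had 0.83 to 1.94 TPM in lactation and 2.02 to 2.99 in the non-lactating period (-0.70 ± 0.21, adjusted p = 0.0165), with no overlap in TPM but overlap after scaling. miR-11999 in BTK had 0.17 to 0.52 TPM in lactation and 0.42 to 2.09 in the non-lactating period, with its highest value in LD1 (-0.54 ± 0.18, adjusted p = 0.027), and is listed through the dry period alone. miR-2376 in TAPBP had 0.88 to 1.66 TPM against 1.21 to 3.28, overlapping in TPM but not after scaling (-0.37 ± 0.13, adjusted p = 0.0364). The calls of miR-10182-3p and miR-11992 were kept in all 12 fits that left out 1 library, and the other 6 lost the call in 5 to 11 of the 12.

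Marker miRNAs of the cell types in the tissue were summed per library, without a test. The 7 epithelial markers (miR-200a, miR-200b, miR-200c, miR-141, miR-429, miR-205 and miR-148a) summed to 141468 to 233146 TPM in lactation, 59333 to 79561 in HD1 and LD1, and 30747 to 52394 in the 4 deepest libraries. Of these 7, miR-148a had the highest mean over the 12 libraries, 90130 TPM, against 13729 for miR-141 and 11458 for miR-205. The means of the rest were between 431 (miR-429) and 3014 TPM (miR-200a). The epithelial sum therefore reflects mainly miR-148a. Any such sum of TPM leans to the most abundant marker of its list, and the changes of the separate markers are not given. The stages overlapped for the sums of the other 5 lists. The 4 leukocyte markers summed to 4991 to 8776 TPM in lactation and 7941 to 19891 in the dry period, with HD1 and LD1 between 10015 and 19891. The 2 endothelial markers summed to 10665 to 16528 TPM and 4676 to 10738, the 2 smooth muscle markers to 58589 to 145006 and 79229 to 224185, the 3 erythroid markers to 781 to 2041 and 413 to 6127, and the 2 of 3 skeletal muscle markers that were listed to 102 to 392 and 89.1 to 726. Their part in the differences of the high-number miRNAs was not tested.

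The slope on depth was then fitted within the 4 groups, as the change of log2(normalized TPM + 1) per doubling of reads. It passed in 2 of the 76 high-number miRNAs (adjusted p under 0.05), against 5 of all 388 (1.29%). Both were lower in deeper libraries, with -1.53 ± 0.25 for miR-11975 (SE, adjusted p = 0.0166) and -1.65 ± 0.30 for miR-11976 (adjusted p = 0.0167). Neither passed without HD1 (-1.51 and -1.48), without HD3 (-1.52 and -1.59) or with the replicate number as a block (-1.48 and -1.40), while 4 members passed without HP1. At a p under 0.05 before adjustment, 10 members were lower in deeper libraries (background 8.51%) and 6 higher (background 6.19%). The higher ones included both arms of the miR-2419 hairpin, with 1.51 ± 0.39 for miR-2419-5p and 1.53 ± 0.52 for miR-2419-3p, and miR-10167-3p with 0.86 ± 0.27. Both arms of miR-2419 and miR-10225a passed the stage test only with depth as a covariate, at 2.29 ± 0.46, 2.04 ± 0.61 and 1.32 ± 0.39.

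HP against LP asked which miRNAs differ with milk protein percentage in lactation. Of the 76, 7 were called (9.21%), at p before adjustment under 0.05 and a log2 difference over 0.8 in size (limma over 6 libraries). LP was higher in 2 and lower in 5. The background was 10.1% of all 388 miRNAs, with 5.93% higher and 4.12% lower. None of the 76 had an adjusted p under 0.05, and 10 had a p under 0.05 before adjustment (13.2%, background 15.7%). The smallest adjusted p was 0.0599. Groups did not overlap in normalized TPM for 13 members, 4 higher and 9 lower in LP, where the background over both directions was 19.8%. Over the 76 the median log2 difference, LP minus HP, was -0.13, and over all 388 it was -0.01.

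miR-11977, whose hairpin overlaps no annotated gene, was higher in LP. It had 2.65, 1.71 and 1.86 TPM in HP and 5.53, 7.30 and 7.95 in LP, with no overlap (log2 difference 1.39 ± 0.29, adjusted p = 0.0599, limma). In the non-lactating period the libraries of HD and LD lay between 3.86 and 12.3 TPM and overlapped. miR-10162-5p, in JDP2, which encodes a repressor of the AP-1 family, had 0.17, 0 and 0.20 TPM in HP and 1.2, 1.42 and 0.76 in LP (0.93 ± 0.21, adjusted p = 0.0763, limma). The HP values were those of at most 2 reads, at or under the floor of those libraries.

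miR-2313-3p in GRAMD1B was lower in LP, with 2.49, 3.67 and 6.74 TPM in HP and 0.15, 0.71 and 1.26 in LP (-1.60 ± 0.34, adjusted p = 0.0599, limma). Every HP library exceeded every LP library, and the HD libraries had 0.27, 0.09 and 0.04 TPM and the LD libraries 1.12, 0 and 0.10. miR-11978, described above for its stage difference, had a log2 difference of -0.95 ± 0.32 (adjusted p = 0.242, limma) between LP and HP, which without HP1 was -0.78 and under the size threshold. miR-10164-3p had 2.32, 2.94 and 4.89 TPM in HP and 1.27, 1.25 and 1.14 in LP (-0.91 ± 0.27, adjusted p = 0.203, limma), and -0.72 without HP3.

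miR-12030 was lower in LP by its mean, 52.1 ± 21.2 TPM against 106 ± 38.7 in HP (SD, n = 3 each), with LP3 above HP1. Its log2 difference of -0.99 ± 0.37 (adjusted p = 0.251, limma) lost the call without HP2 (-0.78), HP3 (-0.88), LP1 (-0.78) or LP2 (-0.92). miR-12023, in GPR137, had 0.83, 3.02 and 0.49 TPM in HP and 0.30, 0.18 and 0.25 in LP, so that HP2 alone carried much of the mean. Outside HP it exceeded 0.5 TPM only in HD1. The log2 difference was -0.83 ± 0.34 (adjusted p = 0.286, limma), -0.39 without HP2, -0.90 without LP1, -0.77 without LP2 and -0.83 without LP3, and the call was lost in each of these fits. The calls of miR-11977, miR-10162-5p and miR-2313-3p were kept in all 6 fits that left out 1 library. The count of 7 became 11 without HP1, with 2 higher and 9 lower in LP.

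**Figure D5:**
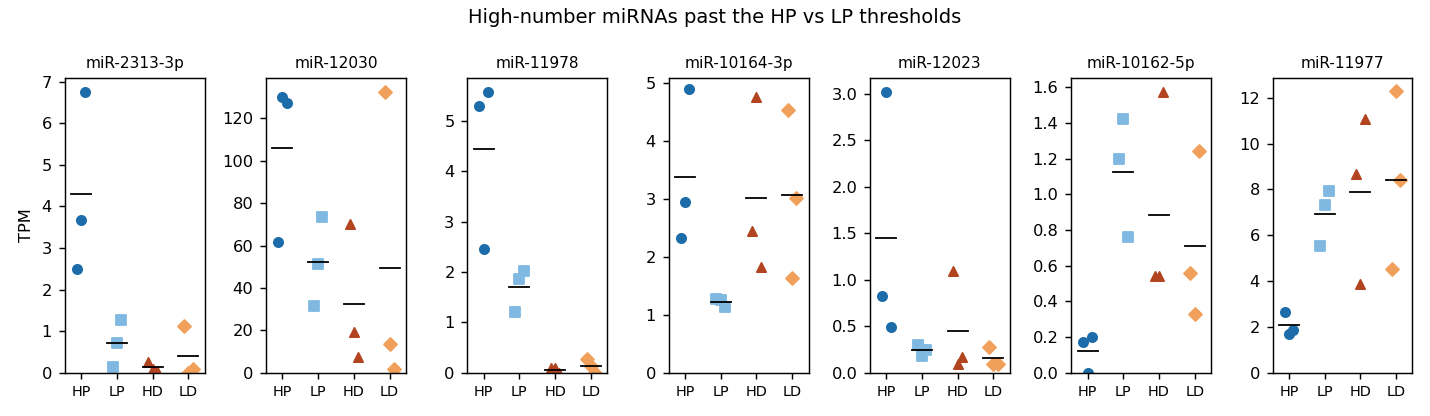
TPM (y axes, from 0) of the 7 high-number miRNAs past the thresholds in HP vs LP, with 1 point per library and a bar at the mean of the 3 libraries of a group. HP and LP do not overlap except for miR-12030, and HD and LD, shown beside them, overlap in all 7.

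HD against LD asked the same in the non-lactating period. Among the 76, 1 was called, higher in LD, where the background was 3.35% of all 388 miRNAs, with 2.06% higher and 1.29% lower. None had an adjusted p under 0.05 by limma, and 1 had a p under 0.05 before adjustment (background 4.9%). This was miR-10167-3p, in a BoLA gene, with 2.35, 2.09 and 4.07 TPM in HD and 6, 6.51 and 4.31 in LD, which did not overlap in TPM but did after division by size factors. Its log2 difference, LD minus HD, was 0.98 ± 0.40 (adjusted p = 0.935, limma), and 0.77 without HD1, 0.86 without HD2, 0.73 without LD2 and 1.01 without LD3, each time without the call. The count was 0 without LD2 or LD3 and 2 without HD2 or LD1. Without size factors it was 0, and the median over all 388 miRNAs moved from 0.03 to -0.16, with 0 called higher and 3 lower among them in place of 8 and 5. Groups did not overlap in normalized TPM for 5 members, 3 higher and 2 lower in LD, against a background of 10.3%. The study, with a count test, listed miR-2411-3p, also among the 76, as higher in LD. Here its log2 difference was -0.04 ± 0.65 (adjusted p = 0.993, limma), with 2.5 to 17.2 TPM in HD and 1.81 to 20.7 in LD.

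The phenotype difference was then compared between the stages over all 12 libraries. None of the 76 passed at an adjusted p under 0.05 (limma, smallest 0.288, as over all 388), and 8 had a p under 0.05 before adjustment (10.5%, background 5.15%). In 6 of the 8 the difference LP minus HP was below LD minus HD. The smallest p was that of miR-2313-3p, with -1.78 ± 0.44 (adjusted p = 0.288, limma), and the others were miR-11978 (-1.02 ± 0.34), miR-12051, miR-10164-3p, miR-12035 and miR-2419-5p. miR-10162-5p and miR-2431-5p went the other way (0.98 ± 0.42 and 0.83 ± 0.38). The HP and LP libraries were the same as in the comparison within lactation, so these values are not independent of it.

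Both arms were listed for 7 hairpins. The arm of the higher mean was the 5p arm in miR-2419 (326 TPM against 3.45), miR-2299 (10.1 against 2.04) and miR-2483 (0.90 against 0.88). It was the 3p arm in miR-2411 (9.31 against 3.51), miR-10172 (9.12 against 0.63), miR-10182 (2.54 against 0.81) and miR-2431 (1.63 against 0.86). In miR-2411 the arms had different patterns over the libraries. miR-2411-5p followed stage as given above, whereas miR-2411-3p had 6.64, 5.38 and 9.67 TPM in HP, 3.51, 27.9 and 7.95 in LP, 17.2 in HD1, 20.7 in LD1 and 1.81 to 5.26 in the 4 deepest libraries. The log2 ratio of (3p TPM + 1) to (5p TPM + 1) was 2.74 and 2.75 in HD1 and LD1, -0.22 to 1.25 in the 4 deepest and -0.58 to 2.31 in lactation. For the 7 hairpins the ratio in lactation was compared with that in the non-lactating period, and none passed (two-sided exact permutation tests, 6 libraries against 6, smallest p = 0.0281 for miR-10172, adjusted p = 0.197 over the 7). The miR-10172 ratio was higher in lactation by 0.97 on the log2 scale. It was 2.42 to 4.15 in lactation, 2.53 to 2.63 in HD1 and LD1, within that range, and 1.12 to 2.02 in the 4 deepest. Its 5p arm had only 2 to 20 reads per library.

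The miR-2284 and miR-2285 family, known as a large family of ruminant genomes with many near-identical copies, was represented by 5 members, among which reads may be shared. Their means were 0.844 to 13.8 TPM with a median of 2.85, and none of the 5 was called in any of the comparisons. miR-2285q in SREK1 had 13.8 TPM, miR-2284w in DOCK11 10.1, miR-2285t in FCGR2B, an inhibitory antibody receptor gene of immune cells, 2.85 and miR-2285s in FMNL2 1.11. Their log2 differences, lactation minus non-lactating, ran from -0.40 ± 0.28 for miR-2285q to 0.76 ± 0.30 for miR-2285t (adjusted p = 0.0607, limma). Of the 15 members from miR-2286 to miR-2399, 3 were higher in lactation and 2 lower, and of the 18 from miR-2400 to miR-2499, 1 and 1. Of the 30 from miR-10162 to miR-11999, 10 were higher and 4 lower, and of the 8 from miR-12000 to miR-12099, 3 and 1. From miR-2880 to miR-2999 the set held none, since miR-2887 and miR-2904, which are listed, were left out by the rule.

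At the low end were miR-11988, miR-2425-5p, miR-12023, miR-2468 and miR-2387, with means from 0.504 to 0.605 TPM. miR-2387, in GTF2IRD1, had 0.17, 0 and 0.39 TPM in HP, 0.52, 0.45 and 0.13 in LP, 0.36, 0.09 and 1.4 in HD and 0.07, 0.84 and 1.63 in LD, and the 4 groups overlapped. miR-2425-5p was listed at 0 in LP1 and HD3 and reached 1.67 TPM in LD3. No member was at 0 in 6 or more libraries, and miR-12035 came nearest with 5. miR-10170-5p, in the milk transporter gene ABCG2, had 0.15 to 1.96 TPM in lactation and 0.14 to 1.26 in the non-lactating period, and its log2 difference was 0.26 ± 0.21 (adjusted p = 0.323, limma).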

How the data were processed

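Small RNA reads were trimmed with Cutadapt and Trimmomatic, aligned by Bowtie to ARS-UCD1.2, and known miRNAs (miRBase) were quantified by miRDeep2, per the study's methods. The deposited values are RPM (reads scaled to an equal total per library, which the authors call TPM) rounded to 2 decimals, in 12 columns, 1 per cow, with 0 columns left unused. The members and the lists used here were chosen with earlier results of these data known.

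All values were whole multiples of 1 step per library within 0.0051 TPM, which gave the reads of each (6026620 to 23577192). Fits used log2(TPM / size factor + 1), with median-of-ratios size factors over the libraries of each fit, in limma 3.58.1 (R 4.3.3) with a trend. Each phenotype comparison took its 6 libraries, and stage, interaction and depth slope took 12. Python 3.11.15 with scipy 1.17.1, pandas 2.3.3 and matplotlib 3.10.9 made the tables, exact tests and plots. The step method and limma fits were tested on simulated data. P-values measure the spread between these cows.

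Alternatives left out the size factors, the trend or each library in turn, set the pseudocount at 0.1 or 5 or the minimum mean at 1 or 10 TPM, used every precursor entry, added a replicate block, or used other sets of libraries. The miRNAs named are the 10 highest and 5 lowest in mean, those called for either phenotype comparison, the 10 of smallest p in each direction for stage, up to 4 examples of the miR-2284 and miR-2285 family, and others named for a host gene, arm or depth pattern after their values were seen. Mature sequences were not analysed here.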

Additional observations from a re-analysis of the deposited data

Results flagged for a closer look

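Within each stage of 6 libraries, 64 values were examined for a library far from the other 5, and 4 were found, where chance gives about 1 in 20. Single miRNAs were taken on the log2(normalized TPM + 1) scale. The summed level was taken as log2 TPM, and the number of members with at least 3 reads as counted. miR-11992 had 1.94 TPM in LP1, against 0.83 to 1.26 in the other lactation libraries. miR-12023 had 1.09 TPM in HD1, against 0.09 to 0.28 in the other non-lactating libraries. miR-2313-3p had 1.12 TPM in LD1, against 0 to 0.27 in the others. miR-12035 had 0.07 TPM in LD1, the value of 1 read, against 0 in the others. None of the 76 miRNAs passed the test of a phenotype difference that differs between stages after adjustment (limma), and 8 had a p under 0.05 before it.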

How the results depend on the processing

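In HP vs LP, 7 members were called, and 1 with a pseudocount of 5 or a mean of at least 10 TPM (12 members tested). Leaving out 1 library gave 5 to 11. In HD vs LD, 1 was called, and 0 without size factors, with a pseudocount of 5 or at a mean of at least 10 TPM, and leaving out 1 library gave 0 to 2. The count higher in lactation (17) was 5 at a mean of at least 10 TPM, 5 in the low-protein groups alone, 9 with depth as a covariate and 5 against HD1 and LD1, and 15 to 19 with 1 library left out. The count lower in lactation (8) was 4 at a mean of at least 1 TPM, 5 without the trend, 0 at a mean of at least 10 TPM, 3 in the high-protein groups alone, 1 in the low-protein groups alone, 0 with depth as a covariate and 3 against HD1 and LD1, and 2 to 7 with 1 library left out. The cause was not tested, apart from the fewer members or libraries in some of these fits. The count of depth slopes (2) was 1 at a mean of at least 10 TPM, 0 with the replicate block and 0 to 4 with 1 library left out.

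The number above 0 per library (median 75) was 73.1 when expected at the depth of HP1, 62 above 0.5 TPM and 71.5 with at least 3 reads. The summed level (median 2401 TPM) was 553 TPM without miR-10174-3p. No named call changed sign in any alternative, and calls were lost in 18 of 111 values of HP vs LP, 6 of 16 of HD vs LD and 140 of 624 of stage. Without size factors the median of all 388 log2 differences, LD minus HD, moved from 0.03 to -0.16, and of all calls in that comparison 0% were higher in LD, against 61.5% with them.

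Same-numbered libraries come from different cows, so the numbers were not taken as pairs. Their deviations correlated at -0.256 to 0.009 (HP and LP) and -0.113 to 0.548 (HD and LD). The values of HD1 with LD1 (0.548) and HD3 with LD3 (0.505) were above those of all differently numbered dry libraries (highest 0.29). The replicate block gave 7 calls in HP vs LP, 1 in HD vs LD, and 18 higher and 7 lower in lactation. The 2 planned count tests, on reads recovered from the rounded RPM, were not run. The median member rested on 8 to 31 reads per library.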
